A study of Mus musculus with 6 samples.

Results

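The nuclear-encoded genes of oxidative phosphorylation were followed in somatic cells of the fetal mouse gonad. They were chosen by symbol: names starting with Nduf, Uqcr, Sdha, Sdhb, Sdhc, Sdhd or Atp5, names starting with Cox and a digit from 4 to 8, and Cycs and Cyc1, leaving out pseudogene symbols. This took 93 of the 11736 genes with deposited values. The annotation (GENCODE M21, build GRCm38, which is mm10) holds 100 protein-coding genes with such symbols, and 7 of them (Atp5mpl, Cox6a2, Cox7b2, Cox8b, Cox8c, Ndufa4l2 and Ndufaf8) are not listed and not analysed here. For each listed gene, 1 group mean or both reach 1.005, so genes that are low in both groups have no value. The families also hold assembly factors and tissue isoforms, which are described apart from the subunits.

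The study compared XY C57BL/6 embryos at E11.5, in the middle of gestation, with 3 libraries of the genotype Cdyl-Het (Cdyl-deficient on a single chromosome) and 3 of the genotype Cdyl-KO (Cdyl-deficient on both). The Cdyl-Het libraries are the control, so the controls carry the deficiency on a single copy, and wild-type gonads are not analysed here. Embryos of both groups carry Nr5a1-hCD271, named for the gonadal regulator Nr5a1 and the human surface protein CD271, and the somatic cells were collected on magnetic beads (MACS) as the hCD271-positive cells. Total RNA was made into stranded libraries with a kit for very small inputs. The labels do not say whether the samples of a group came from separate embryos or pools, so the p-values reflect sample-to-sample spread that could be purely technical.

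Oxidative phosphorylation takes place in the inner mitochondrial membrane. Complexes I and II pass electrons from NADH and succinate to ubiquinone, complex III passes them on to cytochrome c, and complex IV hands them to oxygen. Complexes I, III and IV pump protons as they do so, and complex V (ATP synthase) uses the proton gradient to make ATP. Most subunits come from nuclear genes and the rest from the mitochondrial genome. The nuclear genes are scattered over the chromosomes, and many of their promoters hold sites for the factors NRF1, GABPA (of the ETS family) and YY1, with PGC-1 coactivators (Ppargc1a, Ppargc1b, Pprc1) acting on several of these factors. Of the genes encoded by the mitochondrial genome, 0 are in the deposited table, so the values below cover only the nuclear side of the system.

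The levels are RPKM (reads per kilobase of exon and per 1 M reads sequenced) after division by a scaling factor per library, called scaled RPKM. Changes are Cdyl-KO minus Cdyl-Het on the scale log2(scaled RPKM + 1), fitted with limma, and p-values were adjusted (Benjamini-Hochberg) across the 11736 genes and called at 0.05. A gene is said to have risen or fallen only when it passed that threshold. Because bulk RNA was measured, fewer cells of a type and less RNA per cell cannot be told apart.

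Promoter sequences are shown for Cycs, which had the lowest log2 change of the 93 genes, and for 3 genes that rose, because the promoters of this gene family share short motifs that differ from gene to gene. RefSeq start sites on GRCm38.p6 gave windows from 250 bases before to 50 after the start for 79 of the 93 genes (85 windows, since some genes have several starts). Capitals mark a match to GCATGCGC (the NRF1 core), CCGGAAG (ETS), AAGATGGC (YY1) or TGACGTCA (the cyclic AMP response element, CRE), searched on both strands. The Atp5h match reads CTTCCGG because CCGGAAG lies on the other strand. The 3 longer stretches end before or at the annotated gene's first base, and all 4 lie on the minus strand and are written 5′ to 3′ with respect to the gene.
Cycs, chr6:50566570-50566819: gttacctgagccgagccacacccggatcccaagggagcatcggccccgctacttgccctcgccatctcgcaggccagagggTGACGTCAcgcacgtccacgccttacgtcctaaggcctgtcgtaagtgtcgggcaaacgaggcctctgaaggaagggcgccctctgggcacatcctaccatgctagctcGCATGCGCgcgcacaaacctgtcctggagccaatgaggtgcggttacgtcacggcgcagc
Ndufa6, chr15:82354323-82354541: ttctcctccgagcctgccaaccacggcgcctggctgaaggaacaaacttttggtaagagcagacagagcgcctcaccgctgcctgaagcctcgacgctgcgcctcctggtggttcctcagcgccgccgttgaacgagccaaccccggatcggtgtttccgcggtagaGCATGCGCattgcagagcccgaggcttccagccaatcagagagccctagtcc
Ndufb10, chr17:24724479-24724673: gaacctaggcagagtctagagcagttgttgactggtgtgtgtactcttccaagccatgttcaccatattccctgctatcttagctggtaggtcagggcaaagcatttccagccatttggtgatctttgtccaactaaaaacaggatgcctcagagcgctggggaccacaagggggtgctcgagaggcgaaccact
Atp5h site, chr11:115419941-115419967: aaggagagaaCTTCCGGcaactctctt
The NRF1 core began 60 bases before the start of Cycs, which also held the CRE letters from 169 bases before it, and 83 bases before the start of Ndufa6. The ETS letters began 38 bases before the start of Atp5h. In Cox8a, not printed here, the ETS letters began 5 bases before and 33 bases after the start. Ndufb10 held none of the 4 motifs in its window, which says only that these exact letters are not there.

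Over the whole family, the NRF1 core was present in 15.3% of the 85 windows, against 2.71% of the 32851 windows of all genes. The corresponding shares were 23.5% and 8.86% for ETS, 14.1% and 2.75% for YY1, and 5.88% and 1.79% for the CRE. At least 1 of the NRF1, ETS and YY1 motifs was found in 45.9% of the family's windows and 13.3% of all windows. The windows of the family were also richer in GC (median 58.7% against 52.7%) and in CpG (median 20 against 7 per window), and the part of base composition in the motif shares was not tested. A match describes letters, not a bound factor.

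Cdyl itself was read in every library: the heterozygous ones had 7.77, 8.06 and 8.22 scaled RPKM, the homozygous ones 6.77, 6.93 and 7.07. The groups did not overlap, with Cdyl-KO lower, but the change of -0.19 (limma adjusted p = 0.0702) did not pass the threshold. Without scaling it was -0.32 and passed (adjusted p = 0.0145). The deleted part of the gene is not given in these sources, so a value over the whole gene is a weak check of the labels. The depth implied by the steps between low values was 34.6 to 45.2 M reads. The gonadal regulators Nr5a1 (mean 85.8 in Cdyl-Het and 77.7 in Cdyl-KO), Gata4 (79.1 and 75.2) and Wt1 (70.5 and 75.9) were high in both groups, while Emx2 (0.57, adjusted p = 0.0129), Lhx9 (0.46, adjusted p = 0.0272) and Nr0b1 (0.50, adjusted p = 0.00907) rose in Cdyl-KO. Of 10 gonadal somatic markers 8 are listed, of which 3 rose and 0 fell, with 5 changes above 0 and 3 below. Star had the lowest change of them (means 8.20 and 4.68, change -0.67, limma adjusted p = 0.0536). It did not pass the threshold, though all its Cdyl-KO values were below the Cdyl-Het values. Of 10 germ cell markers only Nanos3 and Kit are listed, and of 10 macrophage markers only Fcgr3 and Cd68. Endothelial markers differed between the groups: 9 of 10 are listed, 4 fell and 0 rose, and their summed level was 35.5 to 38.8 in Cdyl-Het and 22.7 to 25.8 in Cdyl-KO. The 6 listed erythroid markers summed to 51.5 to 261 in Cdyl-Het and 55.1 to 162 in Cdyl-KO, with 0 called by limma (0 higher and 1 lower at an unadjusted p under 0.05). The 7 listed mesonephric markers summed to 15.1 to 21.4 and 17.3 to 21.6, and 1 of them, the kidney regulator Pax8, rose (0.40, adjusted p = 0.0227). The part of these differences in cell makeup in the values below was not tested.

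The 93 genes were expressed well above the typical gene. Their median level over the 6 libraries was 17.5 scaled RPKM, against 5.98 for all genes, and ranged from 1.41 for Cox7a1, a complex IV subunit form of heart and muscle, to 88.3 for Atp5b, the catalytic beta subunit of ATP synthase. In the deposited values their share of each library's summed RPKM was 1.073%, 1.082% and 1.096% in Cdyl-Het, against 1.063%, 1.063% and 1.028% in Cdyl-KO. The share was a little lower in every Cdyl-KO library than in any Cdyl-Het library, and a scaling factor per library does not alter it. The lowest implied number of reads behind any value was 18 (Cox7a1 in Cdyl-KO replicate 3), only Cox7a1 and Cox4i2 had a library with fewer than 100 reads, and the median gene had 1027 reads in its shallowest library. Counting error was therefore small for most of these genes, if reads are taken as independent. How mates were counted is not given. The implied reads were even numbers in every library for low members such as Cox7a1 (18 to 42), Cox4i2 (32 to 78) and Cox6b2 (184 to 326). Whether both mates were counted was not tested, so fragments may be fewer than these reads. Other low members would then have few fragments too, such as Cox6b2, with 184 implied reads in its shallowest library.

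**Figure D1:**
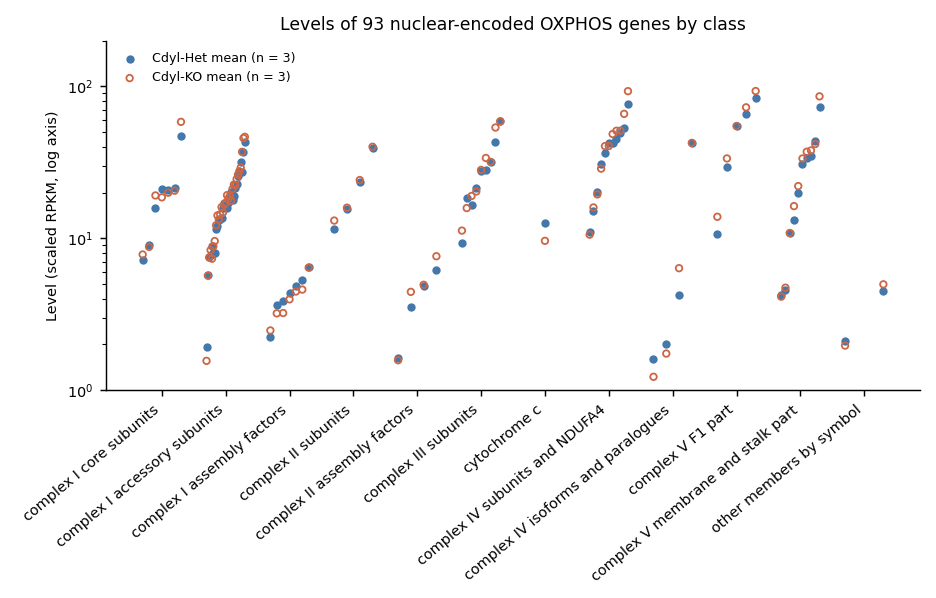
Mean level of each of the 93 genes (vertical log axis, scaled RPKM) by class, with filled points for Cdyl-Het and open points for Cdyl-KO (n = 3 libraries each) and genes sorted by level within a class. Subunit genes of complexes III, IV and V reach the highest levels, up to Atp5b at 88.3 over all libraries, and assembly factors and tissue isoforms lie lowest, down to Cox7a1 at 1.41.

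The classes differed in level in both groups. The median level over all libraries was 55.0 for the F1 part of complex V, which carries the catalytic sites, 41.4 for complex IV subunits with Ndufa4, 28.1 for complex III, 26.6 for the membrane and stalk part of complex V, 19.9 for complex I core subunits, 19.8 for complex II and 16.98 for complex I accessory subunits. Assembly factors were scarcer, with medians of 4.17 for the complex I factors and 4.45 for the complex II factors. Within a class the genes were far from equal. In the complex I accessory subunits Ndufa2 (44.95) stood 25.9 times above Ndufb2 (1.74), although the assembled complex holds a fixed ratio of its subunits. Exons of Ndufb2 overlap in position with exons of Braf and Gm16272 on the other strand and of Gm42420 on the same strand. The annotated exons of Ndufb2 add up to 5628 bases.

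Few of the 93 genes passed the test between Cdyl-KO and Cdyl-Het. Of the 93, 5 rose (among them Ndufb10, Cox8a, Ndufa6 and Atp5h), 0 fell and 88 did not pass the threshold, which is 5.38% called. Over all genes 7.50% were called, 4.67% higher and 2.83% lower, so the family's share of calls was near the background. At an unadjusted limma p under 0.05, 25 of the 93 genes were higher and 4 lower, against 14.2% and 11.2% of all genes. The 3 Cdyl-KO values lay above all Cdyl-Het values in 27 of the 93 genes (against 17.0% of all genes). They lay below them in 5 of the 93 (against 14.5% of all genes), and overlapped in 61. By both of these measures the family's share of higher genes was above that of all genes, and its share of lower genes below. The median log2 change was 0.04, with quartiles of -0.04 and 0.18, against -0.0006 with quartiles of -0.11 and 0.11 for all genes. The sign of that median depended on the scaling: without any, it was -0.09 while all genes had -0.12.

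**Figure D2:**
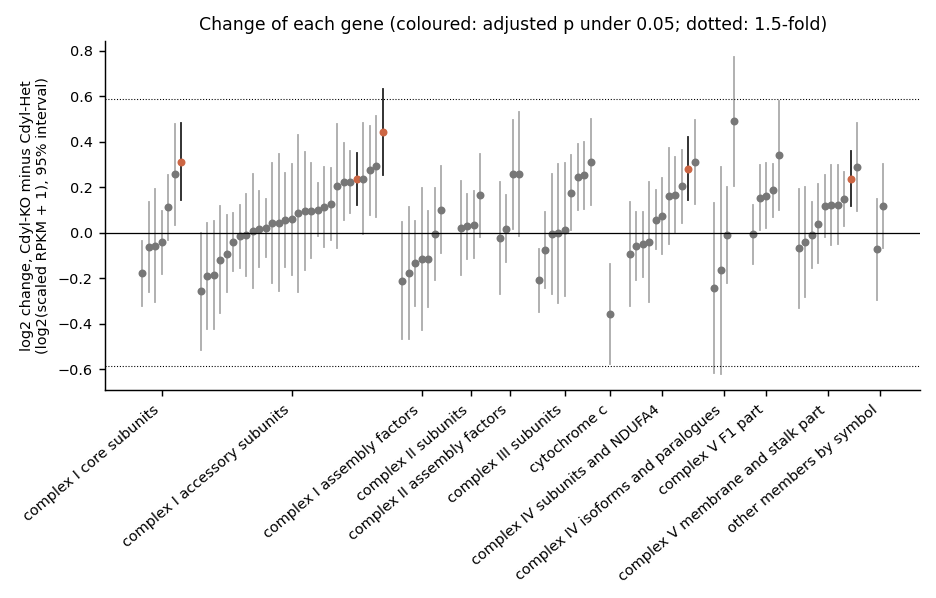
Log2 change of each of the 93 genes with its 95% interval from limma (vertical axis), by class, with coloured points for the 5 genes past the adjusted threshold and dotted lines at 1.5-fold. Changes run from -0.36 (Cycs) to 0.49 (Cox6b2), and the intervals of 89 genes lie within 1.5-fold.

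The size of the differences was bounded. The 95% interval of the change lay within 1.5-fold in either direction for 89 of the 93 genes, against 84.8% of all genes, and within 2-fold for all 93 (the added 1 shrinks the changes of low genes). The 4 genes whose interval reached 1.5-fold were Ndufb10 and Cox6b2 on the higher side and Cox4i2 and Cox7a1 on the lower side. Cox4i2 and Cox7a1 were the genes with the fewest reads. The absolute change was a median of 0.12 in the family and 0.11 over all genes.

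The largest rise past the threshold was in an accessory subunit of complex I. Ndufb10 (chromosome 17, 24722060 to 24724478), which sits in the membrane arm, had 30.4, 24.5 and 26.6 scaled RPKM in Cdyl-Het, against 38.4, 36.4 and 36.5 in Cdyl-KO. The groups did not overlap, and the means of 27.2 ± 2.96 and 37.1 ± 1.15 (SD, n = 3 each) gave a log2 change of 0.44 (SE 0.08, limma adjusted p = 0.0229). Ndufa6 (chromosome 15, 82350140 to 82354322), an accessory subunit of the matrix arm, had 17.6, 18.3 and 17.4 in Cdyl-Het, against 21.6, 20.5 and 21.3 in Cdyl-KO, a tight pair of groups with a change of 0.24 (SE 0.05, adjusted p = 0.0338).

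Genes of complexes IV and V rose as well. Cox8a (chromosome 19, 7215153 to 7217616), the widely expressed form of a small subunit of complex IV, had 72.5, 77.7 and 79.2 in Cdyl-Het, against 94.4, 89.1 and 95.9 in Cdyl-KO. All Cdyl-KO values were higher, and the means of 76.5 ± 3.5 and 93.1 ± 3.55 (SD, n = 3 each) gave a change of 0.28 (SE 0.06, limma adjusted p = 0.0337). Atp5h (chromosome 11, 115415689 to 115419962), subunit d of the stalk that holds the catalytic head of ATP synthase still, had 72.8, 75.4 and 70.4 in Cdyl-Het, against 85.4, 87.7 and 85.0 in Cdyl-KO. The change was 0.24 (SE 0.05, adjusted p = 0.0368), again without overlap. Atp5h has 4 annotated pseudogene copies of at least 95% identity over at least 200 bases, none of them listed, so reads could be split or shared among them.

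Each of these calls was lost in most or all fits that left out 1 library. Fewer libraries enter these fits, and the part of that in the lost calls was not tested. With Cdyl-Het replicate 1 left out, Ndufb10 kept its call (adjusted p = 0.0141), and it lost it without any of the other 5 libraries (limma adjusted p = 0.0594 to 0.0848). Cox8a (0.0625 to 0.104), Ndufa6 (0.0700 to 0.113) and Atp5h (0.0700 to 0.109) lost theirs when any 1 of the 6 libraries was left out, Cdyl-Het replicates 1 to 3 and Cdyl-KO replicates 1 to 3 alike, with the log2 changes staying between 0.21 and 0.31. Of the 93 genes, 0 were called with replicate 2 or 3 of Cdyl-Het or replicate 1 of Cdyl-KO removed. At an unadjusted limma p under 0.05 these fits had 21, 20 and 18 genes higher and 2, 3 and 7 lower. The share of all genes at that p in these fits is not given here, so these counts have no background to be read against. Without scaling, of the 5 only Ndufb10 was called.

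**Figure D3:**
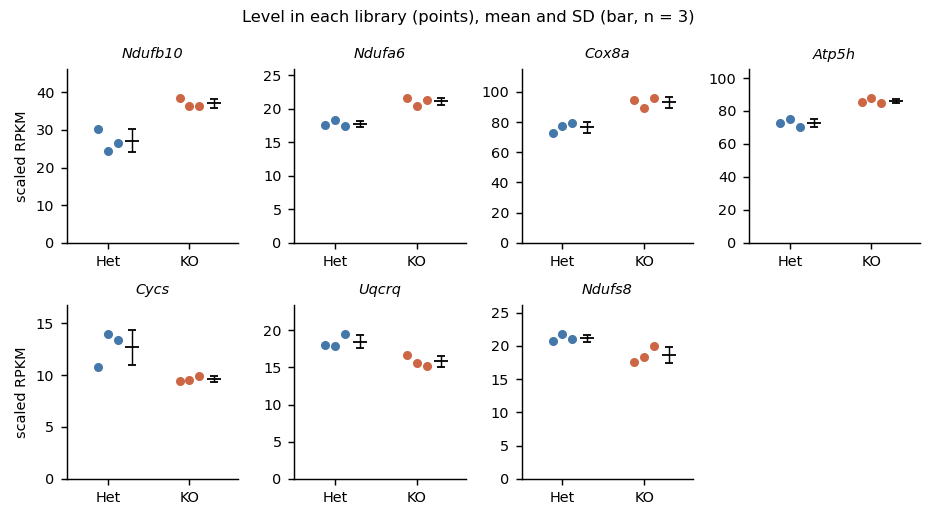
Scaled RPKM in each library (points) for Ndufb10, Ndufa6, Cox8a and Atp5h, which rose, and for Cycs, Uqcrq and Ndufs8, with the mean and SD of each group as a bar (n = 3) and axes from 0. The Cdyl-KO points lie above all Cdyl-Het points in the 4 genes that rose and below them in the 3 others, none of which passed the threshold.

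Within complex I, the largest class, few genes passed the test. Of the 7 nuclear core subunits, 0 fell and 4 had a change below 0, with a median of -0.04. Ndufs8, a core subunit that carries iron-sulfur clusters, had 20.7, 21.8 and 21.0 in Cdyl-Het, against 17.5, 18.3 and 19.96 in Cdyl-KO. The Cdyl-KO values were all lower, but the change of -0.18 had an adjusted p of 0.119 (limma). Of the 29 accessory subunits, 2 rose (Ndufb10 and Ndufa6), and the median was 0.06, from -0.26 for Ndufc1 (means 8.93 and 7.34, adjusted p = 0.192) to 0.44. Of the 7 assembly factors, which build the complex and do not stay in it, 0 were called and 0 had an unadjusted limma p under 0.05, while 6 of 7 had a change below 0 and the median was -0.12. Ndufaf6 was lowest among them at -0.21 (adjusted p = 0.278), and Ndufaf3 highest at 0.10 (adjusted p = 0.481).

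Complex II, which is also the succinate dehydrogenase of the tricarboxylic acid cycle and has all its subunits in the nuclear genome, had 0 genes called by limma and 0 at an unadjusted p under 0.05. The flavoprotein gene Sdha had 39.5, 41.4 and 37.1 in Cdyl-Het, against 42.0, 39.3 and 38.9 in Cdyl-KO. The groups were interleaved, and the change was 0.03 with a 95% interval from -0.11 to 0.17. Sdhb, the iron-sulfur subunit (0.02, adjusted p = 0.907), and the membrane anchors Sdhc (0.16, adjusted p = 0.243) and Sdhd (0.04, adjusted p = 0.764) did not pass the threshold either. The 4 complex II assembly factors had changes from -0.02 (Sdhaf3) to 0.26 (Sdhaf4, adjusted p = 0.219), with 0 called and 1 higher at an unadjusted limma p under 0.05.

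The 9 complex III genes spread to both sides of 0, and 0 passed the threshold (limma; 4 higher and 1 lower at an unadjusted p under 0.05). Uqcrq, a small subunit of the membrane part, had 18.0, 17.9 and 19.5 in Cdyl-Het, against 16.7, 15.6 and 15.2 in Cdyl-KO. All Cdyl-KO values were lower, and the change was -0.21 (adjusted p = 0.0801). Uqcrh, the hinge protein that helps cytochrome c dock, had 44.5, 40.5 and 44.0 in Cdyl-Het, against 59.8, 49.7 and 51.4 in Cdyl-KO. It pointed the other way, at 0.31 (adjusted p = 0.0639), also without overlap. Cyc1, the cytochrome c1 of the complex, had a change of 0.18 (adjusted p = 0.171), and Uqcrb, the most abundant of the class, had means of 59.0 and 58.9.

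Cycs, the soluble cytochrome c that carries electrons from complex III to complex IV and triggers apoptosis when released from mitochondria, had the lowest change of the family. It measured 10.8, 14.0 and 13.4 in Cdyl-Het, against 9.40, 9.57 and 9.91 in Cdyl-KO. Every Cdyl-KO library was below every Cdyl-Het library, with Cdyl-Het replicate 1 the nearest to them, and the change was -0.36 (SE 0.09, limma adjusted p = 0.0636). It did not pass the threshold with all 6 libraries and passed it without Cdyl-Het replicate 1 (adjusted p = 0.0124), without scaling (0.0211) and with a level filter of 5 (0.0462). Cycs has 3 pseudogene copies of at least 95% identity, none of them listed.

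Among the 11 complex IV genes (including Ndufa4, which was named for complex I and is a subunit of complex IV), 1 rose (Cox8a) and the median change was 0.07. Cox5b, a zinc-binding subunit of the matrix side, had 57.2, 49.8 and 51.8 in Cdyl-Het, against 72.0, 62.4 and 63.6 in Cdyl-KO. Its groups did not overlap, and the change of 0.31 narrowly missed the threshold (limma adjusted p = 0.0581). Cox7c was the lowest at -0.09 (adjusted p = 0.585). Ndufa4 itself was 15.1 ± 0.549 in Cdyl-Het and 16.0 ± 1.39 in Cdyl-KO (SD, n = 3 each; adjusted p = 0.567).

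Complex IV and the c ring of complex V are where these families hold tissue isoforms. Cox4i1, the general form, made up 96.1% ± 0.552 of the Cox4i1 and Cox4i2 level in Cdyl-Het and 96.7% ± 1.34 in Cdyl-KO (SD, n = 3, of scaled RPKM, as for the shares that follow). Cox7a1, the heart and muscle form, made up 7.39% ± 0.735 of the Cox7a1 and Cox7a2 level in Cdyl-Het and 5.88% ± 1.996 in Cdyl-KO, within the spread. Cox7a2l, which is a supercomplex factor in spite of its name, had means of 42.7 and 42.5. Cox6a2, Cox8b, Cox8c and Ndufa4l2 are not listed, so Cox6a1, Cox8a and Ndufa4 had no partner to be set against.

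Cox6b2, a form best known from the testis and sperm, had the highest change of the 93 genes. It measured 4.99, 4.08 and 3.66 in Cdyl-Het, against 7.06, 5.38 and 6.63 in Cdyl-KO. The Cdyl-KO libraries were all higher, with a change of 0.49 (SE 0.12, limma adjusted p = 0.0546), which did not pass the threshold. It passed without Cdyl-Het replicate 1 (0.59, adjusted p = 0.0416). With a level filter of 5 the adjusted p was 0.0424. All its Cdyl-Het values were below 5 and all its Cdyl-KO values above. It therefore met that filter only through Cdyl-KO, and the call under the filter adds nothing to the rise. Its partner Cox6b1 had means of 36.3 and 40.5 (0.16, adjusted p = 0.315), and the share of Cox6b2 in their summed level was 13.8%, 9.58% and 8.53% in Cdyl-Het, against 14.8%, 12.04% and 13.7% in Cdyl-KO. The shares overlapped, as Cdyl-Het replicate 1 lay among the Cdyl-KO values.

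In complex V, the 5 genes of the F1 head had a median change of 0.16 with 0 called (4 higher and 0 lower at an unadjusted limma p under 0.05). Atp5b, the beta subunit, had 81.7, 88.6 and 79.7 in Cdyl-Het, against 97.2, 90.7 and 92.0 in Cdyl-KO. The groups were separate by a small gap, with a change of 0.16 (adjusted p = 0.152). Atp5e, the epsilon subunit, had the highest change of the head (0.34, adjusted p = 0.0909) and Atp5c1, the gamma subunit of the rotor, the lowest (-0.01, adjusted p = 0.945). Of the 10 genes of the membrane and stalk part, 1 rose (Atp5h), the median was 0.12, and the lowest was Atp5k at -0.07 (adjusted p = 0.740). The genes Atp5s and Atp5sl, whose products are not ATP synthase subunits, had changes of -0.07 and 0.12 and were not called.

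The c ring is encoded by a set of 3 genes with the same mature protein. Atp5g3 supplied 63.8% ± 3.49 of their summed level in Cdyl-Het and 62.1% ± 1.07 in Cdyl-KO, Atp5g2 27.4% ± 2.68 and 30.2% ± 0.420, and Atp5g1 8.85% ± 0.978 and 7.67% ± 1.12 (SD, n = 3). The order of the 3 was the same in every library. Atp5g2 had 13.5, 11.7 and 14.3 scaled RPKM in Cdyl-Het, against 17.3, 15.4 and 16.2 in Cdyl-KO, without overlap, and a change of 0.29 that did not pass the threshold (limma adjusted p = 0.0818).

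**Figure D4:**
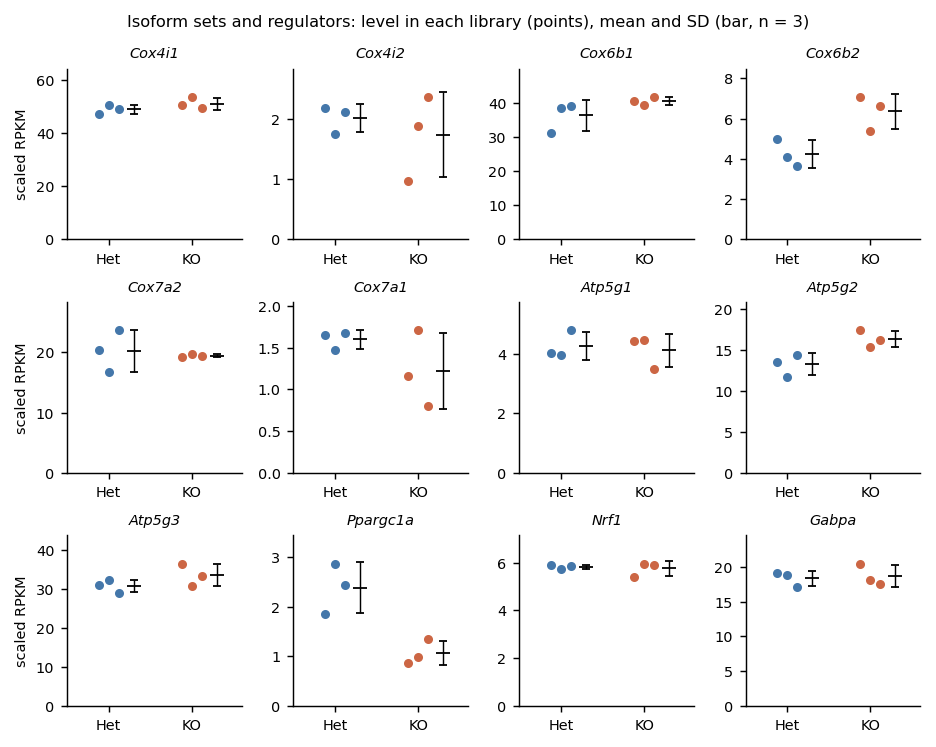
Scaled RPKM in each library (points) of isoform partners in complexes IV and V and of the regulators Ppargc1a, Nrf1 and Gabpa, with the mean and SD of each group as a bar (n = 3) and axes from 0. Cox6b2 lies higher and Ppargc1a lower in all 3 Cdyl-KO libraries, and the points of Nrf1 and Gabpa overlap between groups.

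Among the regulators of these genes, 1 passed the threshold. Ppargc1a, the coactivator PGC-1 alpha that raises mitochondrial gene expression in many tissues, had 1.85, 2.87 and 2.45 in Cdyl-Het, against 0.866, 0.985 and 1.35 in Cdyl-KO. It fell by 0.71 on the log2 scale (SE 0.15, limma adjusted p = 0.0340), with no overlap, at a level below most genes of the family. That call was lost with any of 4 libraries removed, namely replicates 2 (adjusted p = 0.0985) and 3 (0.116) of Cdyl-Het and replicates 1 (0.0976) and 2 (0.0882) of Cdyl-KO. It was also lost with quantile normalization (0.0721) and with a replicate block. The call was kept without scaling, where 3 regulators in all, and 1558 of all 11736 genes, were called lower. Its relatives Ppargc1b (-0.12, adjusted p = 0.522) and Pprc1 (-0.11, adjusted p = 0.238) did not pass the threshold. Nor did the DNA-binding factors Nrf1 (-0.01, adjusted p = 0.902), Gabpa (0.02, adjusted p = 0.869), Yy1 (0.14, adjusted p = 0.298) and Esrra (-0.00, adjusted p = 0.990), or the mitochondrial transcription genes Tfam (-0.08), Tfb2m (0.11) and Polrmt (0.16). Of 21 regulators looked for, 17 are listed, and 0 rose. At an unadjusted limma p under 0.05, 1 was higher and 2 were lower. The lower ones were Ppargc1a and Gabpb1 (means 4.65 and 3.86, change -0.22, adjusted p = 0.0568, without overlap), which did not pass the adjusted threshold in the case of Gabpb1.

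Few genes of the other mitochondrial groups were called. Of the 77 mitochondrial ribosomal proteins, 0 were called by limma, with 8 higher and 5 lower at an unadjusted p under 0.05 and a median change of 0.01. Among 31 assembly factors of complexes III, IV and V 0 were called (6 higher and 2 lower unadjusted), and the same held for 8 further complex I assembly factors (0 and 0), 11 coenzyme Q synthesis genes (1 and 1) and 10 carriers and channels (0 and 2). Without scaling, which shifts all genes down, 1558 of all 11736 genes were called lower. Among them were 6 mitochondrial ribosomal proteins, 2 assembly factors of complexes III, IV and V and 2 carriers or channels. Of 21 genes of the tricarboxylic acid cycle and pyruvate entry, 1 rose: Suclg2, a subunit of succinyl-CoA synthetase (means 11.54 and 15.6, change 0.40, adjusted p = 0.0420). Of 27 protein import genes, 2 rose, both small subunits of the outer membrane translocase: Tomm7 (35.3 and 51.0, change 0.52, adjusted p = 0.0194) and Tomm6 (14.7 and 19.5, change 0.38, adjusted p = 0.0222). Suclg2 lost the call without scaling (0.0679), with no trend and with a replicate block. Tomm6 lost it with a factor within length groups and with a replicate block, and Tomm7 kept it in all of these fits. Suclg2, Tomm7 and Tomm6 each lost the call with any of 4 libraries removed, namely replicates 2 (adjusted p = 0.118, 0.0693 and 0.0694) and 3 (0.132, 0.0744 and 0.0778) of Cdyl-Het and replicates 1 (0.122, 0.0666 and 0.0689) and 3 (0.111, 0.0594 and 0.0586) of Cdyl-KO.

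Change went with level and gene length over the whole table, and the family is abundant and short. In all genes, the median change was -0.09, -0.03, 0.02 and 0.07 in 4 equal bins of rising level, and 0.04, 0.02, -0.01 and -0.03 in 4 equal bins of rising exon length. Of the 93 genes, 61 lay in the highest bin of level, 64 of 91 with an annotated length lay in the shortest bin (at most 2573 bases), and 49 lay in both. The 913 genes of the table in both of those bins had a median change of 0.14, above the family's 0.04, and 13% of them were called higher and 1.64% lower. The cytosolic ribosomal proteins, which are short and more abundant still, had 15 of 82 genes called higher and 0 lower, with a median of 0.15. Examples are Rps15 (means 254.5 and 329, change 0.37, adjusted p = 0.0132), Rpl35 (166 and 213, change 0.36, adjusted p = 0.0142) and Rpl13a (151 and 208, change 0.46, adjusted p = 0.0162). The count of 15 depended on the processing: it was 5 without scaling, 1 with quantile normalization and 6 with a factor within length groups. It was 0 with replicate 2 or 3 of Cdyl-Het removed, and 1, 5 and 4 with replicates 1, 2 and 3 of Cdyl-KO removed in turn. With quantile normalization the changes of Rps15, Rpl35 and Rpl13a were 0.14, 0.12 and 0.24 (adjusted p = 0.119, 0.234 and 0.0602). The part of level and length in the 5 calls of the family was not tested by itself. With a scaling factor set within 10 groups of gene length, Ndufb10 alone stayed higher and Uqcrq was called lower.

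**Figure D5:**
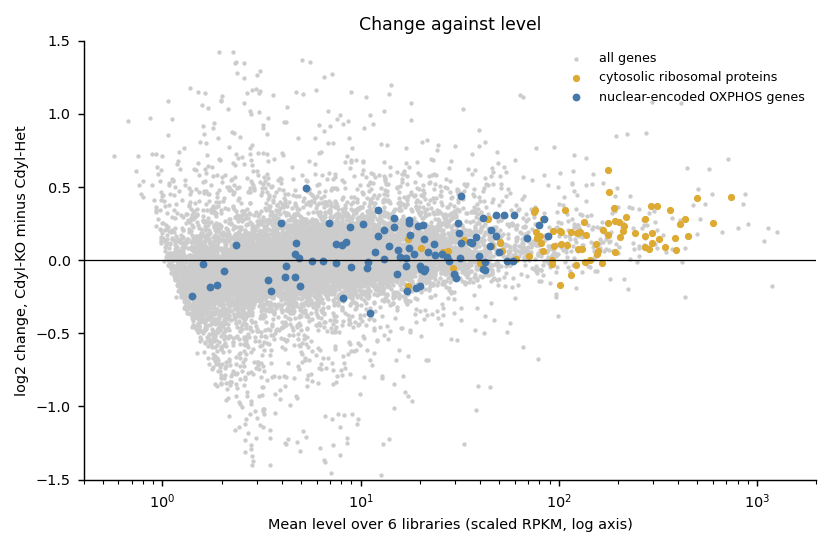
Log2 change (vertical axis) against mean level over the 6 libraries (horizontal log axis, scaled RPKM) for all genes (grey), the 93 oxidative phosphorylation genes (blue) and 82 cytosolic ribosomal proteins (gold); 26 genes lie outside the axes. The blue points sit around 0 with a median of 0.04, and most gold points lie at higher levels and above 0.

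The libraries of a group were not equal for these genes. Cdyl-KO replicate 1 had the highest of the 3 Cdyl-KO values in 58 of the 93 genes (32.3% of all genes), and Cdyl-KO replicate 3 the lowest in 45 (31.6% of all genes). The median deviation of the family from each gene's mean over the 6 libraries was 0.11, 0.03 and -0.02 (log2) in Cdyl-KO replicates 1, 2 and 3, and -0.04, -0.03 and -0.01 in the Cdyl-Het replicates. Cdyl-KO replicate 3 thus lay among the Cdyl-Het libraries. Without it the median change of the family was 0.10, and without Cdyl-KO replicate 1 it was 0.01. The coefficient of variation, at its median, was 5.75% in Cdyl-Het and 8.45% in Cdyl-KO for the family, against 7.46% and 7.16% for all genes.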

How the data were processed

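Total RNA of 6 libraries was read as 1 deposited table per library, with a symbol and a value for each gene. The submitters' processing notes name STAR, Subread's featureCounts 1.6.4 and mm10. The annotation, strand setting, counting of mates and step from counts to values are not given in these sources. The authors made the deposited values, taken here as RPKM (no header or label names the unit), with the tools above. The unit was read from their lack of a fixed total and from their steps, 87.6% to 90.0% of which were whole within 0.04 reads at the implied depths (scanned from 20 to 50 M reads). These depths are inferred, and fragments may be fewer.

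Values were divided by a trimmed mean of log ratios (30% of ratios and 5% of levels trimmed, Cdyl-Het replicate 1 as reference) and fitted as log2(scaled RPKM + 1), with a pseudocount of 1, by limma 3.58.1 with trend (R 4.3.3), with group as the only term and Benjamini-Hochberg adjustment over all 11736 genes. The fit was also run on simulated data with independent noise for each gene and library. Those data held no trend of change with level or length, so the run does not bear on such trends. A count model would have been used for whole counts, and the values were not counts. The 93 genes and all lists were chosen with earlier results of these data known. Not every gene past the threshold is reported here. Genes named are those past the threshold, the highest level and the extreme changes of each class, complex II, Cycs, Cyc1, the isoform sets, up to 3 called genes per related list and 10 regulators. Marker genes, Gabpb1, Ndufb2 and Ndufs7 are named in addition, all but the marker genes after their values were seen. Of the 93 symbols, 91 matched a single GENCODE M21 gene. Exons of 32 overlap another gene, and 21 have a pseudogene copy (blastn 2.17.0, at least 95% identity over at least 200 bases). Promoters are RefSeq windows. Other scalings, pseudocounts, a level filter, no trend, a replicate block and leaving out each library were tried. The level filter kept genes at 5 or more in at least 3 libraries, of either group.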

Additional observations from a re-analysis of the deposited data

How the results depend on the processing

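The 880 genes changed over the whole table (62.3% of them higher) became 1863 without scaling, of which 305 were higher and 1558 lower (16.4% higher), and the median change of all genes then shifted to -0.12. The 5 members higher became 1 without scaling, 1 with quantile normalization, 1 with a factor within 10 length groups, 10 of 79 with a filter at a level of 5, and 2 with no trend. The 0 members lower became 3 without scaling (Ndufs8, Uqcrq and Cycs), 1 with length groups (Uqcrq) and 1 with the filter (Cycs). The share of all genes called with quantile normalization, length groups, the filter or no trend is not given here, so those counts have no background to be read against. With the filter the median change of all genes was 0.0365, and Cox6b2, among the 10, met it only through Cdyl-KO. The members' median change of 0.04 became -0.0863 without scaling. Leaving out each library in turn gave 253 to 647 genes changed, 0 to 2 members higher, 0 to 1 lower and a median of 0.0114 to 0.1012; fewer libraries enter each of these fits. Without Cdyl-KO replicate 2 only Ndufs7 was called among the members, and without Cdyl-KO replicate 3 only Atp5e.

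The labels give replicate numbers but do not say whether same-numbered samples were paired. The deviations of same-numbered libraries had correlations of -0.05, -0.27 and -0.05. With 3 libraries per group these values cannot decide the pairing. With the replicate block, 337 genes and 1 member, Ndufb10, were called. The size factors from the median of ratios, pseudocounts of 0.1 and 5, and Cdyl-KO replicate 1 as the reference library (chosen after seeing the data) kept all 5 calls. Over all 16 alternatives Ndufb10 was called in 10, Cox8a and Ndufa6 in 6 each, and Atp5h in 5. No called member changed sign in any of them. Depth limits Cox7a1 and Cox4i2 most, the members with under 100 implied reads in a library. It may limit other low members too if fragments are fewer than the implied reads.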

Other observations

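Genes of the system under older symbols lie outside the rule. Atpif1, the inhibitor of ATP synthase hydrolysis, had means of 153 in Cdyl-Het and 178 in Cdyl-KO scaled RPKM (change 0.22, limma adjusted p = 0.141), above every member's level, with groups that overlapped. Usmg5, a small membrane protein of ATP synthase, had means of 52.3 and 46.1 (-0.17, adjusted p = 0.452), also with overlap.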
